A study of Mus musculus with 4 samples.

Results

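Open chromatin was described around 10 genes of the Notch pathway in mouse primary myoblasts: the ligand genes Dll1, Jag1 and Jag2, the receptor genes Notch1, Notch2 and Notch3, the nuclear effector gene Rbpj and the target genes Hes1, Hey1 and Heyl. They were chosen by name, not by a measured value, out of 22350 protein-coding genes of chromosomes 1 to 19 and X. Every ATAC-seq peak from 50000 bp upstream of the 5′ end of a gene to 50000 bp past its 3′ end was taken as belonging to its window, whichever gene it serves. The 10 windows covered 1432 kb of mm9 and held 49 of the 25775 WT peaks and 14 of the 3836 Tet2 KO peaks. All 10 genes had at least 1 WT peak, and 7 had a Tet2 KO peak.

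The study set wild-type (WT) mice against mice with a constitutive Tet2 knockout (Tet2 KO), all of the C57BL/6 strain. The knockout was made by deleting exon 3 of Tet2, whose protein oxidizes methylated cytosine and so opens the way to demethylation. Unless stated otherwise, the study used male mice of 8 to 10 weeks. Muscle stem cells of the hindlimb were sorted as propidium iodide-negative cells without CD45, CD11b, CD31 and Sca1 and with CD34 and Integrin a7, and were grown for 3 days as myoblasts. Since the knockout was present in every cell of the body throughout development, it was not limited to these cells. ATAC-seq, in which the transposase Tn5 cuts accessible DNA and tags it for sequencing, was run on 5000 cells per library with 2 libraries per genotype. Only 1 peak list per genotype was analysed here, from a single library each. Values therefore have no replicate error, no difference between the genotypes could be tested, and each interval given for a share is a Wilson 95% interval, which allows for counting error alone.

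Peak numbers run along the genome, and both lists skip some of them, 9707 of 35482 in WT and 4403 of 8239 in Tet2 KO, so each is a selection from a longer set of called peaks and a missing peak is not proof of closed chromatin. The genome-wide background, recovered from the peak statistics, was 0.649 fragments per position in WT and 1.38 in Tet2 KO. The lists also did not share 1 cutoff: no WT peak had a -log10 q below 2.18, whereas the Tet2 KO list went down to 0.863 and had 55 of its 3836 peaks under 2. With a -log10 q of at least 2 required in both lists, the Notch windows held 49 WT peaks and 12 Tet2 KO peaks. The Tet2 KO list was the shorter list, from the library with more background fragments. Beyond this limit and the stricter ones given below, the part of depth and cutoff in the counts was not tested. At the promoters (defined below) of 6 satellite cell and myoblast markers, Myod1 and Des had a peak in both lists, and Myf5, Pax7, Cdh15 and Itga7 in neither. At Cdh15 the nearest WT summit lay 392 bp from the start, outside the promoter as defined. Of 8 marker genes of other cells of muscle, 1 had a WT promoter peak (the endothelial gene Pecam1) and 0 had a Tet2 KO promoter peak. Over all coding genes the shares were 30.4% in WT and 7.94% in Tet2 KO, so 6 and 8 genes are too few to check the cell type. The window of Tet2 held 4 WT peaks and 0 Tet2 KO peaks, which does not check the deletion of the exon.

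Notch signaling passes between touching cells. Delta and Jagged proteins on one cell bind a Notch receptor on the next, the receptor is cut, and its intracellular domain enters the nucleus, joins the DNA-binding protein RBPJ and turns on genes such as those of the HES and HEY repressors. In skeletal muscle the pathway is known for holding satellite cells in quiescence and for restraining MyoD-driven differentiation of myoblasts.

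Sequences at 7 of the peaks are shown because the values below return to them. Those of Dll1, Jag2, Notch1, Notch3, Hes1 and Heyl are peaks found in both lists, and that of Jag1 had the most matches to the RBPJ core among the peaks shown. Each is the 200 bp centered on the WT summit, 5′ to 3′ on the strand of the gene, read from the mm9 reference. Capitals mark matches, on either strand, to 6 motifs: the RBPJ core TGGGAA, the E box CAGCTG of MyoD and related factors, the CACGTG site of HES and HEY repressors, the AP-1 site TGANTCA, the TEAD site GGAATG and the RUNX site TGTGGT. On the opposite strand the RBPJ core reads TTCCCA, the TEAD site reads CATTCC and the RUNX site reads ACCACA, and the other 3 read the same on both strands.
Dll1, chr17:15466780-15466979, minus strand: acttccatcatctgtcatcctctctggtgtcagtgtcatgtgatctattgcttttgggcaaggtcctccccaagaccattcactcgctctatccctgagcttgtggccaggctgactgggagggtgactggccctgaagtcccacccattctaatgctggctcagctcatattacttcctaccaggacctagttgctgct
Jag1, chr2:136875173-136875372, minus strand: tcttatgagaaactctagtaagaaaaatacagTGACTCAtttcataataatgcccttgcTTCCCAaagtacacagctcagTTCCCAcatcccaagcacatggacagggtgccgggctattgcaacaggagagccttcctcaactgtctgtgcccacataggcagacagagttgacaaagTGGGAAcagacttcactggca
Jag2, chr12:114176140-114176339, minus strand: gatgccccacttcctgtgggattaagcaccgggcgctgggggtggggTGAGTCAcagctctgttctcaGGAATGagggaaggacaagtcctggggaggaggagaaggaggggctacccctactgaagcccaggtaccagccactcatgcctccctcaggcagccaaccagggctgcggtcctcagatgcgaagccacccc
Notch1, chr2:26387435-26387634, minus strand: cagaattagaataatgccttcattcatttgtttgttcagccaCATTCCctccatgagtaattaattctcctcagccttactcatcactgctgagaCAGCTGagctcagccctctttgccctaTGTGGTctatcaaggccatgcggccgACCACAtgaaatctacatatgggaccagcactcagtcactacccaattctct
Notch3, chr17:32255617-32255816, minus strand: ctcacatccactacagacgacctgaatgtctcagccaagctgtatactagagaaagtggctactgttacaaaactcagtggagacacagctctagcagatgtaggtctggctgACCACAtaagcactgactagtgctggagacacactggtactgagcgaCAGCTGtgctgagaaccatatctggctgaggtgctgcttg
Hes1, chr16:30024890-30025089, plus strand: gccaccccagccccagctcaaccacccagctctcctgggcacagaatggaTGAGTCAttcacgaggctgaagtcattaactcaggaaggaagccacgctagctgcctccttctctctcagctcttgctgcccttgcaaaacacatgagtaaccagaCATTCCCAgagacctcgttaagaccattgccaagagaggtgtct
Heyl, chr4:122903276-122903475, plus strand: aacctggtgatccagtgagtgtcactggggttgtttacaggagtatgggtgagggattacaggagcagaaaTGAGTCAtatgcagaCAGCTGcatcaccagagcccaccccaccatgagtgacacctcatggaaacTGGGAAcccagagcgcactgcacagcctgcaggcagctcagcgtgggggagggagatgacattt

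The sequence of Heyl, the gene of a HEY-family repressor, held an AP-1 site at base 72, a CAGCTG E box at base 87 and an RBPJ core at base 137, counted from 1 at the 5′ end. That of Hes1, the classical Notch target repressor, held an AP-1 site at base 51 and, at bases 157 and 159, a TEAD site and an RBPJ core that share letters, so that 1 run of capitals stands for both. The Jag1 sequence held RBPJ cores at bases 60, 81 and 180 and an AP-1 site at base 33. The Jag2 sequence held an AP-1 site at base 48 and a TEAD site at base 69. At Notch1 a TEAD site at base 43 and an E box at base 96 were followed by RUNX sites at bases 123 and 149. At Notch3 there were a RUNX site at base 114 and an E box at base 161, and at Dll1 there were 0 matches to any of the 6. A match is a description of the letters and not evidence of binding.

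To ask how accessibility in Tet2 KO myoblasts compared with WT at these genes, each WT peak was checked for a Tet2 KO peak sharing at least 1 bp. Of the 49 WT peaks, 13 overlapped a Tet2 KO peak, at Dll1, Jag2, Notch1, Notch3, Rbpj, Hes1 and Heyl, which was 26.5% (16.2 to 40.3), beside 14.1% of all WT peaks. The remaining 36 had none. At Notch2, Jag1 and Hey1 no WT peak had a Tet2 KO partner. In the other direction, all 14 Tet2 KO peaks overlapped a WT peak, beside 3712 of 3836 over the whole list (96.8%). Hence the Notch windows held 3.5 WT peaks per Tet2 KO peak, against 6.72 in the lists as a whole. The share changed with the limits set on the peaks. Once Tet2 KO peaks whose -log10 q was under 2 were dropped, it was 24.5% at the Notch genes and 13.9% over all WT peaks. With a fold enrichment of at least 5 required in both lists it was 10.4% at the Notch genes and 10.6% over all WT peaks, and where both peaks had to reach a -log10 q of 5 it was 10.6% and 9.03%. Where the overlap had to cover 50% of both peaks it was 16.3% and 10.05%.

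**Figure D1:**
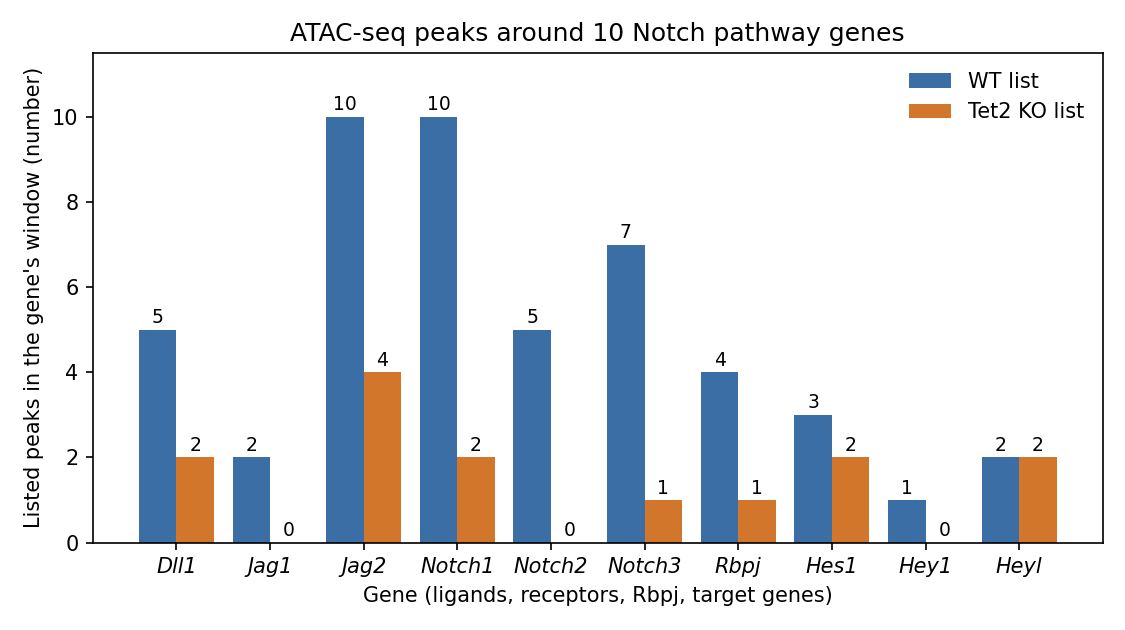
Number of listed ATAC-seq peaks (vertical axis) in the window of each Notch pathway gene (horizontal axis), with the WT list in blue and the Tet2 KO list in orange, 1 list per genotype. The WT count is above the Tet2 KO count at 9 genes and equal to it at Heyl, where both lists hold 2 peaks.

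Per gene, the WT list held 10 peaks at Notch1 and at Jag2, 7 at Notch3, 5 at Notch2 and at Dll1, 4 at Rbpj, 3 at Hes1, 2 at Jag1 and at Heyl and 1 at Hey1. The median was 4.5, beside a median of 2 over all protein-coding genes, of which 74.3% had a WT peak in their window. Notch1 and Jag2 each had more WT peaks than 98.1% of protein-coding genes. Longer genes have longer windows. Per 100 kb of window the median was 2.51 WT peaks at the Notch genes and 1.60 over all coding genes, and the order of the genes changed: Jag2 was the highest at 8.27, then Notch1 at 6.30, while Notch2, with the longest window (237 kb), had 2.11. In the Tet2 KO list Jag2 had 4 peaks, Notch1, Dll1, Hes1 and Heyl had 2 each, Notch3 and Rbpj had 1 each, and Notch2, Jag1 and Hey1 had 0. The 7 of 10 genes with a Tet2 KO peak compare with 31.4% of all coding genes.

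A promoter ran from 1000 bp before to 100 bp after any annotated start of a gene. A WT peak was centered there at 5 of the 10 genes (Notch1, Dll1, Jag2, Rbpj and Hes1), beside 30.4% of all coding genes, and a Tet2 KO peak at 3 (Dll1, Rbpj and Hes1), beside 7.94%. At 4 of the 5 genes without a listed WT promoter peak, namely Notch3, Jag1, Hey1 and Heyl, the interval between the neighboring listed WT peaks skipped 1 peak number, so that a called but unlisted peak could lie there. At Notch2 it skipped 0. The same interval skipped a number at 50.8% of all coding genes without a WT promoter peak.

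**Figure D2:**
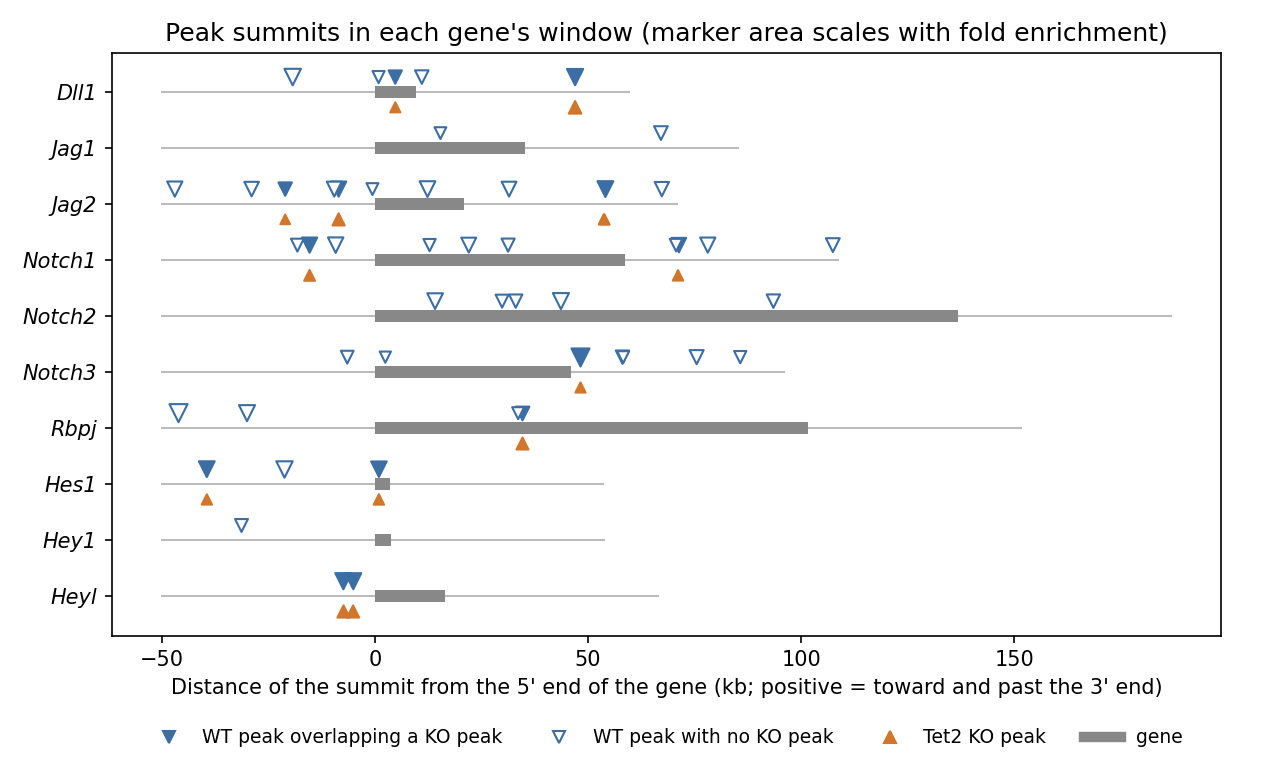
Position of each peak summit relative to the 5′ end of its gene in kb (horizontal axis; positive values run toward and past the 3′ end), 1 row per gene, with the gene as a thick bar, WT peaks as blue downward triangles (filled when they overlap a Tet2 KO peak) and Tet2 KO peaks as orange upward triangles. Marker area scales with fold enrichment. The 10 WT peaks inside gene bodies away from promoters are all open triangles. Of all WT peaks 14.1% overlapped a Tet2 KO peak, so 0 of 10 does not stand apart.

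By place, 14 WT peaks lay upstream of a gene, 11 downstream, 10 inside the gene body away from promoters, 7 at one of its own promoters and 7 at a promoter of another gene. Tet2 KO peaks overlapped 5 of the 14 upstream peaks, 3 of the 11 downstream ones, 3 of the 7 at own promoters and 2 of the 7 at promoters of other genes. None of the 10 gene-body peaks had a Tet2 KO partner. Over all WT peaks the share was 14.1%, and 10 peaks are too few for a count of 0 to stand apart from it. The share over all WT peaks of each place is not given here. Of the 10 gene-body peaks, 5 lay in Notch2, so they are not independent of that gene. In introns and intergenic sequence together, 8 of 33 Notch WT peaks had a Tet2 KO partner, beside 11.0% of all such WT peaks.

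Among the ligands, Dll1 (chr17:15504318-15513836, minus strand) encodes the Delta-like ligand that activates Notch on neighboring cells. Of its 5 WT peaks, 2 also had a Tet2 KO peak. The first, chr17:15508935-15509214, lay 290 bp upstream of a start annotated within the gene, with a fold enrichment over local background of 6.82 in WT and 3.89 in Tet2 KO. The second, chr17:15466786-15467026, was intergenic, 46956 bp from the 5′ end and beyond the 3′ end of the gene, with fold enrichments of 10.1 and 6.04. That Tet2 KO peak had the highest fold enrichment of the 14. The highest WT peak by q, with a fold enrichment of 10.5, was centered at the promoter of the neighboring gene Fam120b and had no Tet2 KO peak within 23803 bp. Around it and the WT peak 835 bp from the 5′ end of Dll1, the Tet2 KO list skipped 6 numbers over 1921998 bp.

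Jag2 (chr12:114146801-114167706, minus strand), which encodes a Jagged ligand, had 4 Tet2 KO peaks, the most of the 10 genes. Of these, 2 had a -log10 q under 2, at 1.74 and 1.81, so the rank rests on them. The 4 peaks fell on 3 of its 10 WT peaks. The peak at chr12:114175875-114176467, 8534 bp upstream of Jag2 and in an intron of Nudt14, had 37 fragments at the summit in WT and 24 in Tet2 KO, with fold enrichments of 8.86 and 5.72 and a Tet2 KO -log10 q of 8.69. The peak 21081 bp upstream, at a promoter of the annotated gene Gm17274, had 6.92 and 3.56. The 636 bp peak beyond the 3′ end (chr12:114113500-114114135) had a WT fold enrichment of 9.68 and was met by 2 narrow Tet2 KO peaks of 4.31 and 3.47, the latter being the lowest of the 14. The peak 603 bp upstream of the start of Jag2 itself was in the WT list alone, at 5.44.

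Jag1 (chr2:136907192-136942380, minus strand), the gene of the other Jagged ligand, had 2 WT peaks and no Tet2 KO peak, the nearest being 157913 bp from a WT peak. The higher one, chr2:136875234-136875344, lay 67107 bp from the 5′ end, in an intron of 2210009G21Rik, with a fold enrichment of 7.28 and 11 fragments at the summit. It is the one whose sequence held 3 RBPJ cores. The lower one, in an intron of Jag1, had 8 fragments and a fold enrichment of 5.33. Both were below the WT median over the whole list of 7.89, and the Tet2 KO list skipped 3 numbers in the interval around them.

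Notch1 (chr2:26313423-26372183, minus strand) encodes a receptor that acts in activated satellite cells. It had 2 Tet2 KO peaks, on 2 of its 10 WT peaks. One lay 15352 bp upstream (chr2:26387438-26387638), in intergenic sequence, with fold enrichments of 8.87 in WT and 4.47 in Tet2 KO and with 21 and 13 fragments at the summit. The other, chr2:26300760-26301152, was 71325 bp from the 5′ end at the shared promoter of Sec16a and 0610009E02Rik, and had 8.07 and 4.17. The only WT peak at a start annotated to Notch1, 12810 bp into the gene, had a fold enrichment of 5.79 and no Tet2 KO peak within 28020 bp. Around that one the Tet2 KO list skipped no number over 86364 bp, so no peak called in that library was left out there.

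Notch2 (chr3:97817461-97954290, plus strand), also a receptor of satellite cells, differed from the other genes in where its peaks lay. All 5 WT peaks were in its introns, from 14107 to 93502 bp past its start, with fold enrichments of 6.48 or more. The one with the highest -log10 q (18.7) was chr3:97831373-97831660, with 28 fragments at the summit. The Tet2 KO list had no peak within 248695 bp of any of them and skipped 6 numbers in that interval of 1754674 bp, so unlisted Tet2 KO peaks could lie among them.

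Notch3 (chr17:32257765-32303825, minus strand), a receptor known as a brake on satellite cell proliferation, had the WT peak with the highest -log10 q of the 49. It lay 48108 bp from the 5′ end, just beyond the gene in an intron of Gm17276 (chr17:32255568-32255819), with a fold enrichment of 12.5, 36 fragments at the summit and a -log10 q of 28.4. It was higher in fold than 92.9% of WT peaks. The Tet2 KO peak at this place had a fold enrichment of 3.94, 12 fragments and a -log10 q of 2.46, and was higher than 3.42% of Tet2 KO peaks. Its ratio of Tet2 KO to WT fold enrichment, 0.314, was the lowest of the 13 shared peaks. Of the other 6 WT peaks, with fold enrichments of 4.83 to 7.61, none had a Tet2 KO partner.

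Rbpj (chr5:53947018-54048684, plus strand), whose protein carries the Notch signal to DNA, held the shared peak whose fold enrichment differed least. At chr5:53981445-53981739, next to starts annotated within the gene, the fold enrichment was 7.27 in WT and 5.54 in Tet2 KO, with 20 and 15 fragments. That ratio of 0.763 was the highest of the 13. The WT peak with the highest fold enrichment of all 49, 12.6, lay 46116 bp upstream (chr5:53900769-53901105) and had no Tet2 KO peak within 18377 bp. A second upstream peak, 30041 bp away, had 9.92 and no Tet2 KO peak within 34367 bp. The Tet2 KO list skipped 1 number in the interval that holds both.

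Among the targets, Hes1 (chr16:30064470-30067882, plus strand) had a Tet2 KO peak on 2 of its 3 WT peaks. At chr16:30065264-30065497, 34 bp upstream of a start annotated within the gene, the fold enrichment was 9.19 in WT and 4.16 in Tet2 KO. At chr16:30024863-30025204, 39480 bp upstream and intergenic, it was 9.58 and 4.05. The peak between them, 21298 bp upstream, had 10.3 in WT, the highest fold enrichment of the 3, and no Tet2 KO peak within 18031 bp. Its 16 fragments were the fewest of the 3, beside 22 and 25, over a local background of 0.649. Its -log10 q of 14.4 was the lowest, beside 15.9 and 16.7. Here the Tet2 KO list skipped no number over 40216 bp.

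Heyl (chr4:122910799-122927118, plus strand) was the only gene of the 10 whose WT peaks all had a Tet2 KO partner, 2 of 2. They lay 7423 bp (chr4:122903212-122903535) and 5104 bp (chr4:122905536-122905864) upstream of its start. The WT fold enrichments were 10.03 and 9.86 with 34 fragments at each summit, and the Tet2 KO ones were 5.70 and 5.64 with 18 and 19 fragments. Both Tet2 KO peaks had a -log10 q above 6 (6.68 and 6.92), beside a median of 3.12 over the 14. The distal peak held an RBPJ core, an E box and an AP-1 site in the 200 bp at its summit, and the proximal one held 3 E boxes and no RBPJ core.

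Hey1 (chr3:8663362-8667039, minus strand), the other HEY gene, had 1 WT peak, 31433 bp upstream (chr3:8698403-8698673), with a fold enrichment of 6.40 and 10 fragments. No Tet2 KO peak lay within 132228 bp, and the Tet2 KO list skipped no number around it.

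**Figure D3:**
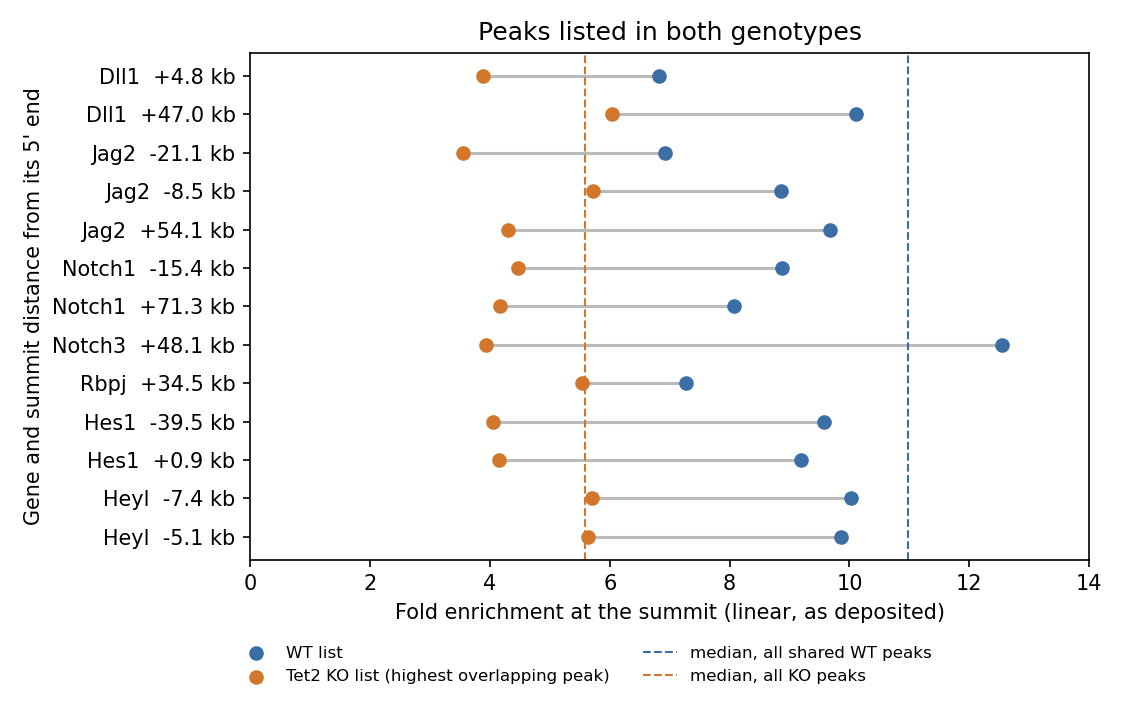
Fold enrichment at the summit (horizontal axis, linear, as deposited) of the 13 WT peaks with a Tet2 KO partner, blue for WT and orange for the highest overlapping Tet2 KO peak, each row named by gene and distance from its 5′ end. In every row the Tet2 KO value lies to the left of the WT value, and the dashed lines mark the medians of 11.0 for all WT peaks with a Tet2 KO peak and 5.59 for all Tet2 KO peaks.

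At all 13 shared peaks the Tet2 KO fold enrichment was below the WT one, as it was at 3564 of the 3633 shared WT peaks of the whole list (98.1%). The median ratio was 0.516 (range 0.314 to 0.763), beside 0.532 over those 3633, so the size of the drop was close to that of shared peaks in general. In fragments at the summit the median ratio was 0.545 and the range 0.333 to 0.895, beside 0.556 over all. Fragment numbers were not scaled for depth, and the genome-wide background was 0.649 in WT and 1.38 in Tet2 KO. The 13 shared WT peaks had a median fold enrichment of 9.19 and the 36 without a partner one of 7.15, with ranges of 6.82 to 12.5 and 4.83 to 12.6 that overlapped. Over all WT peaks these medians were 11.0 and 7.57. The 14 Tet2 KO peaks were weaker than the list they came from, with a median fold enrichment of 4.24 against 5.59 and a highest value of 6.04, and they averaged 167 bp in width against 221 bp. The 49 WT peaks were near the list's median, at 7.84 against 7.89. Of the 14, 2 peaks at Jag2 had a -log10 q under 2, at 1.74 and 1.81.

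For the 36 WT peaks without a partner, the interval between the neighboring listed Tet2 KO peaks was checked for skipped numbers. It skipped at least 1 at 23 of the 36. These intervals had a median of 162342 bp, in a list that skips 4403 of 8239 numbers. The share over all WT peaks without a partner is not given here. At the remaining 13, among them those at Hey1, 1 at Hes1 and 5 at Notch1, no called Tet2 KO peak is missing from the interval.

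The peaks were then compared in sequence with all WT peaks, in the 200 bp at the summit. The RBPJ core was found in 13 of 49 peaks, 26.5% (16.2 to 40.3), beside 19.7% of all WT peaks. The E box CAGCTG was found in 20, 40.8% (28.2 to 54.8), beside 33.2%. The RUNX site was found in 15, 30.6% (19.5 to 44.5), beside 24.9%, and the TEAD site in 8, 16.3% (8.51 to 29.0), beside 17.2%. For these 4 motifs the share of all WT peaks lay inside the interval of the Notch peaks. The CACGTG site of HES and HEY repressors was in 1 peak, an intronic one of Notch2, 2.04% (0.361 to 10.7), beside 4.33%, which is again inside the interval. The AP-1 site was found in 10 peaks, 20.4% (11.5 to 33.6), beside 34.1% of all WT peaks. That share was just above the interval, which is no test, since peaks are not replicates. In introns and intergenic sequence alone the AP-1 site was in 10 of 33 Notch peaks, 30.3% (17.4 to 47.3), beside 44.7% of all such WT peaks, which is inside the interval.

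**Figure D4:**
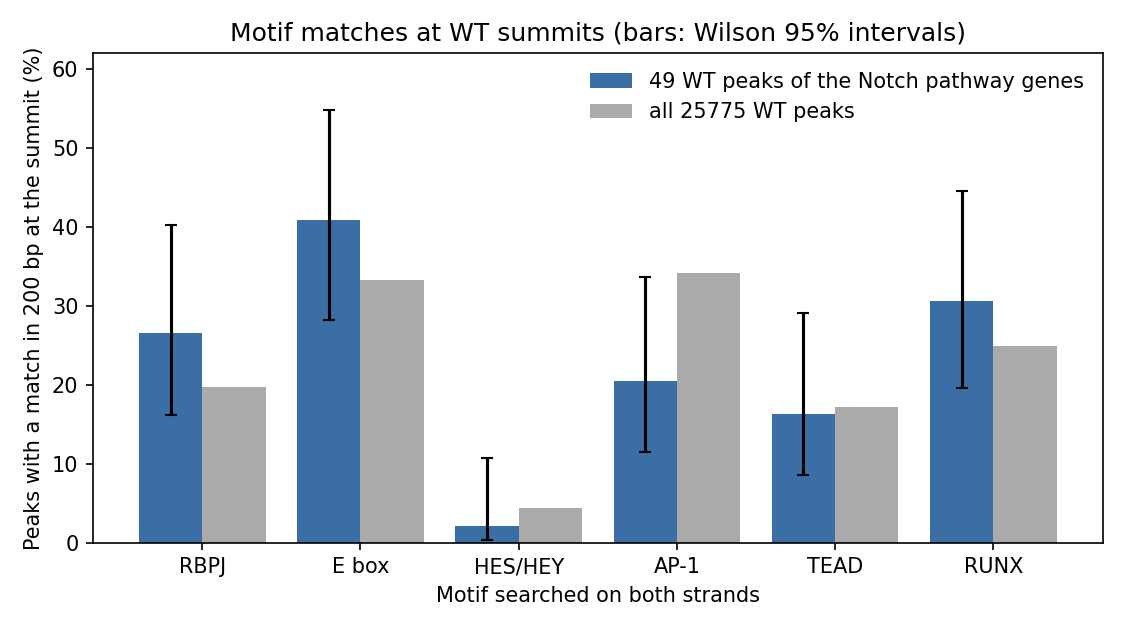
Percent of peaks with a match in the 200 bp at the summit (vertical axis) for 6 motifs (horizontal axis), in the 49 WT peaks of the Notch pathway genes (blue, bars with Wilson 95% intervals for counting error) and in all 25775 WT peaks (gray). AP-1 is the motif whose share over all WT peaks, 34.1%, lies above the interval of the Notch peaks.

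Among the 33 Notch WT peaks in introns or intergenic sequence, 15 had an E box without an AP-1 site, 9 an AP-1 site without an E box, 1 (the distal peak of Heyl) both, and 8 neither. Of all 17866 such WT peaks, 39.7% had an E box and 44.7% an AP-1 site. Their split into these classes is not given here, so the counts have no background. RBPJ cores were found in 4 of the 13 peaks with a Tet2 KO partner. Of the Notch WT peaks that held a core, 30.8% had a partner, near the 26.5% of all 49. Over the whole list 13.1% of WT peaks with a core had one, near the 14.1% of all WT peaks. The GC content at the summit had a median of 56.5% at the Notch peaks and of 53% over all WT peaks, and it was 56% at the 13 with a partner and 56.5% at the 36 without. Base composition and position alter how often a short motif occurs, and their part in these shares was not tested.

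Beyond the 10 genes, 47 further genes of the pathway were described in the same way. They held 191 WT peaks, of which 29 overlapped a Tet2 KO peak, 15.2% (10.8 to 21.0), beside the 14.1% of all WT peaks. A WT peak was found in the window of 45 and a Tet2 KO peak in that of 24. The exceptions without a WT peak were Dlk1 and Ncor1. The Mastermind-like coactivator genes Maml1 and Maml3 had 14 WT peaks each, and the cofactor gene Spen and the Numb-like gene Numbl had 7 each. A WT promoter peak was present at 22 of the 47 and a Tet2 KO promoter peak at 8, beside 30.4% and 7.94% of all coding genes. These 8 were Mib1, the ubiquitin ligase that activates ligands, Adam10, the protease of the first receptor cut, Aph1a, Aph1b and Aph1c, subunits of gamma-secretase, Numb and Fbxw7, which limit Notch activity, and Hes6. Aph1b and Aph1c are near-identical copies, so their peaks are uncertain. By role, genes of ligand and receptor processing had a WT promoter peak at 9 of 12 and a Tet2 KO one at 5 of 12. The 4 further ligand genes had 0 in either list, and the 10 cofactor genes had 5 in WT and 0 in Tet2 KO. Groups of 4 or 10 genes are too small for a count of 0 to stand apart from a background of 7.94%.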

How the data were processed

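ATAC-seq libraries of WT and Tet2 KO primary myoblasts were sequenced with paired 150 bp reads, 2 libraries per genotype. The authors cut the reads to 36 bp, mapped them to mm9 by Bowtie2, required a mapping quality of 30, removed duplicates with Picard and ran MACS2 on each library, for which the methods name a q of 0.01, a limit that 55 peaks of the Tet2 KO list and 0 of the WT list miss. The 2 peak lists analysed hold 25775 and 3836 peaks and were given to WT and Tet2 KO because these totals equal the sums of the feature classes in the paper. No list was tied to a replicate, and how its peaks were selected is not given in the sources used here. The score the authors deposited restates the -log10 q of a WT peak or the -log10 p of a Tet2 KO peak, multiplied by 10, and was not used further. The fold the authors deposited is a ratio of fragments at the summit to the background around it in that library, with 1 added to both. The -log10 p and -log10 q values the authors deposited are those of the summit.

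From these, fragment numbers at the summits and in the background were solved by the Poisson formula of MACS2 to within 0.001 in -log10 p for 100% of peaks, a step checked on simulated data. No other measure of depth was at hand, and read totals are unknown. Genes and starts came from GENCODE M1 on the NCBIM37 sequence, which is mm9. Places were assigned at the peak centre, and every rule was applied to both whole lists. Alternatives were other windows, limits, overlap rules, promoter definitions and motif windows. All 10 genes were described. Of each, the WT peak with the highest -log10 q and every peak in both lists were named, with a gene whose promoter held one. Of the 47 further pathway genes, the 5 with most WT peaks, 1 of which is not reported here, and those with a Tet2 KO promoter peak were named. The genes, motifs and lists were chosen with earlier results of these data known, and Dlk1, Ncor1 and single WT-only peaks of Jag1, Jag2, Dll1, Notch1, Rbpj and Hes1 were named after their values were seen. The software was Python 3.11.15 with pandas 2.3.3, numpy 2.4.6, matplotlib 3.10.9 and scipy 1.17.1.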

Additional observations from a re-analysis of the deposited data

How the results depend on the processing

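The number of WT peaks at the Notch genes, 49, was 23 from 10000 bp upstream to the end of each gene, 77 with 100000 bp on either side and 27 at a -log10 q of at least 10. The number of Tet2 KO peaks, 14, was 6 in the first of these windows, 9 with 20000 bp on either side, 5 at a -log10 q of at least 5 and 0 at 10, and 5 at a fold enrichment of at least 5. The share of WT peaks with a Tet2 KO peak, 26.5%, was 10.6%, 0% and 10.4% under those 3 limits, where it was 9.03%, 3.41% and 10.6% over all WT peaks. With only the WT peaks held to a -log10 q of 10 or more, an alternative chosen after seeing the data, it was 44.4%, and 24.5% over all WT peaks. These limits by construction keep fewer peaks; beyond that the cause was not tested. Where the overlap had to cover 50% of both peaks the share was 16.3%, beside 10.05% over all WT peaks, and under the summit and 500 bp rules it was 22.4% and 28.6%, beside 12.9% and 15.3%. The promoter counts stayed at 5 to 6 genes in WT and 2 to 3 in Tet2 KO. Of 100 counts at single genes, 25 moved by over 1.5 times, 20 of them lower, and 2 of 12 motif shares left their interval, AP-1 at 10.2% and TEAD at 8.16%, both within 50 bp of the summit, where all WT peaks had 23.9% and 9.94%. No paired analysis was possible because a genotype had 1 list with no replicate number, and for the same reason no replicate could be left out. Summits of 8 to 37 fragments set the precision at these genes.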
